A study of Mus musculus with 36 samples.

Results

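RNA was sequenced from the extracellular vesicles (EVs) of mouse fetal neural stem cells kept for 5 days in 320 mg/dL ethanol or in control medium. The comparison took the 6 EV libraries at 320 mg/dL and the 6 EV libraries at 0 mg/dL, 12 of the 36 libraries of the series. They were chosen by their labels and paired by culture. The labels give the mice as C57BL/6J with the genotype WT, and the study's methods name C57BL/6J (Ai14), a reporter line, so the cells of all groups share that background. They came from fetuses at gestational day 12.5, from the dorsal telencephalon, which forms the neocortex. Tissue of one pregnancy was pooled by sex, so that pregnancy sets 3, 4 and 5 each gave a female (F) and a male (M) culture, named 3F to 5M. Each culture was grown as floating neurospheres in serum-free mitogenic medium and was used at passages 7 to 10. Each was also exposed to 120 mg/dL ethanol, and the cells that shed the vesicles were sequenced beside them. Controls received the same medium changes without ethanol. A single library per culture and dose is a pool of 4 flasks, and the female and male cultures of a set share a pregnancy.

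EVs are membrane-bound particles that cells release and that carry RNA and protein to other cells. Their RNA is a selection of the RNA of the cell and can be rich in fragments and in small noncoding RNA. In these libraries small structural noncoding RNA took 0.806% of control EV counts and 1.93% of control cell counts. Nuclear transfer RNA took 0.102 and 0.268%. MicroRNA precursor loci (0.0194 and 0.00929%) and nuclear ribosomal RNA (0.000452 and 0.000207%) went the other way. The libraries were depleted of ribosomal RNA, so its share does not give the ribosomal RNA content of EVs. The microRNA share was highest in the 5M control EVs (0.0567%), while those of 3F (0.00605%) and 3M (0.00894%) lay below the cell mean. Neural stem cells of the fetal cortex divide at the ventricle and give rise to neurons, and ethanol disturbs their renewal and maturation. Values are CPM, counts scaled to a library of 1e6, each library scaled by its TMM factor (a correction for differences in composition). They are relative, so that a change in the number of vesicles collected and a change in the RNA per vesicle cannot be told apart.

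Depth ranged from 1.12 to 5.47 M counts per library (M is 1e6), and culture 3F had 1.12 M in control and 4.24 M at 320 mg/dL. A count of 0 allows up to 3 counts, or 0.527 to 3.95 CPM by library on this scale (highest in the 4F library at 320 mg/dL), and covers counting error only. The 4F library at 320 mg/dL stood apart, with a TMM factor of 0.493 against 0.801 to 1.53 in the other five of that dose, and Gm36876 and AY036118 took 23.1% and 10.7% of its counts. Of 24 radial glia and neural stem cell genes, summed levels were 1243 to 1785 CPM in control and 1302 to 1891 CPM at 320 mg/dL, against 7323 to 8839 CPM in control cells. Vim, Nes, Fabp7 and Slc1a3 were present in every library, while Sox2 and Sox1 were listed at 0, Sox2 in the control cells too. Aqp4 (astrocyte), P2ry12 (microglia) and Cldn5 (endothelium) were also listed at 0, but other markers of these cell types were not. Gfap (astrocyte) was at 6.17 to 86.6 CPM in control and 7.53 to 83.0 CPM at 320 mg/dL. Cx3cr1 (microglia) reached 3.685 CPM in control and 5.02 CPM at 320 mg/dL (22 counts in 4M). Pecam1 (endothelium) reached 3.63 CPM in control and 5.27 CPM at 320 mg/dL (4 counts in 4F). The 12 microglia genes summed to 3.11 to 16.8 CPM in control and 0.818 to 7.91 CPM at 320 mg/dL, the 10 endothelial and pericyte genes to 6.22 to 62.1 and 6.26 to 63.3 CPM, and the 9 mesenchymal genes to 9.45 to 29.3 and 10.5 to 42.2 CPM. The 28 neuronal genes summed to 572.2 to 860.1 and 677.3 to 867.2 CPM and the 19 oligodendrocyte and astrocyte genes to 324.4 to 613.1 and 311.2 to 649.9 CPM. Erythroid genes summed to at most 3.95 CPM, with 6 of 9 listed at 0. In control cells the microglia genes summed to 1.10 to 1.78 CPM and the endothelial and pericyte genes to 4.77 to 8.09 CPM. The mesenchymal genes summed to 35.8 to 166.4 CPM there. The neuronal genes were at 1377 to 3179 CPM in those cells and the oligodendrocyte and astrocyte genes at 1110 to 2439 CPM.

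MicroRNAs are the class of EV cargo best known for acting in recipient cells, and their sequences are shown here because the level of their precursor loci was among the measurements. Of 1184 precursor loci, 7 had enough counts to be tested, and RefSeq (GRCm38.p6) held mature sequences for 6 of them. In the sequences below, written 5′ to 3′ with the seed (bases 2 to 8) in capitals, let-7i-5p belongs to the let-7 family, which restrains stem cell renewal, and miR-92b-3p shares its seed with the miR-25 family. No seed was common to these loci apart from that of miR-7652-3p and miR-7688-3p.
mmu-let-7i-5p: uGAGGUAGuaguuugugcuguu
mmu-miR-92b-3p: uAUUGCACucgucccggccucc
mmu-miR-7652-5p: uAAGGGCAcagggauuucaggc
mmu-miR-7652-3p: uCUGGCUUuccuguggcuucu
mmu-miR-7688-3p: uCUGGCUUaugccuagcuuuc

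The counts are per precursor locus and do not say which arm, or whether a mature miRNA, was read. Mir7652 was lower at 320 mg/dL in 6 of 6 cultures, at 7.88, 14.9, 5.99, 7.71, 2.31 and 6.32 CPM in control (3F, 3M, 4F, 4M, 5F, 5M) and 5.81, 6.95, 3.95, 7.53, 1.66 and 4.99 CPM at 320 mg/dL. The difference was within the range of control levels and missed the threshold (log2 fold change -0.47 ± 0.17 SE, edgeR adjusted p = 0.294). Its counts were low in 4F (10 in control, 3 at 320 mg/dL) and in 5F (7 and 4). Mirlet7i was at 1.199 to 2.89 CPM in control and at 1.23 to 9.23 CPM at 320 mg/dL, with the highest value in the 4F library (log2 fold change 0.79 ± 0.37 SE, adjusted p = 0.464). That value was 7 counts, with 2 in the 4F control. Mir92b differed by less than its error (0.26 ± 0.36), as did Mir5099 (-0.33 ± 0.35). Over all precursor loci the share of counts was 0.0194% ± 0.0187 (SD, n = 6) in control and 0.0143% ± 0.0106 at 320 mg/dL.

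The comparison across all RNAs asked which EV transcripts responded to the heavy dose. Of 28807 features with a count in the 12 libraries, 13193 had enough to be tested. Of these, 10 of 13193 features tested passed an adjusted p of 0.05 (0.0758%), 2 higher and 8 lower at 320 mg/dL. Scaled by library totals instead, 8 were called, 0 of them higher, with the median of all features at -0.24. The test was edgeR's quasi-likelihood F test with the culture as a block and Benjamini-Hochberg adjustment. Over the tested features, log2 fold changes had a median of 0.01, with 51.8% above 0. At an unadjusted p under 0.05 stood 597 features higher (4.53%) and 832 lower (6.31%). In 1037 features (7.86%) the 6 cultures moved one way, 356 higher and 681 lower. The groups of 6 libraries did not overlap in 16 features (0.121%), 8 in each direction.

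**Figure D1:**
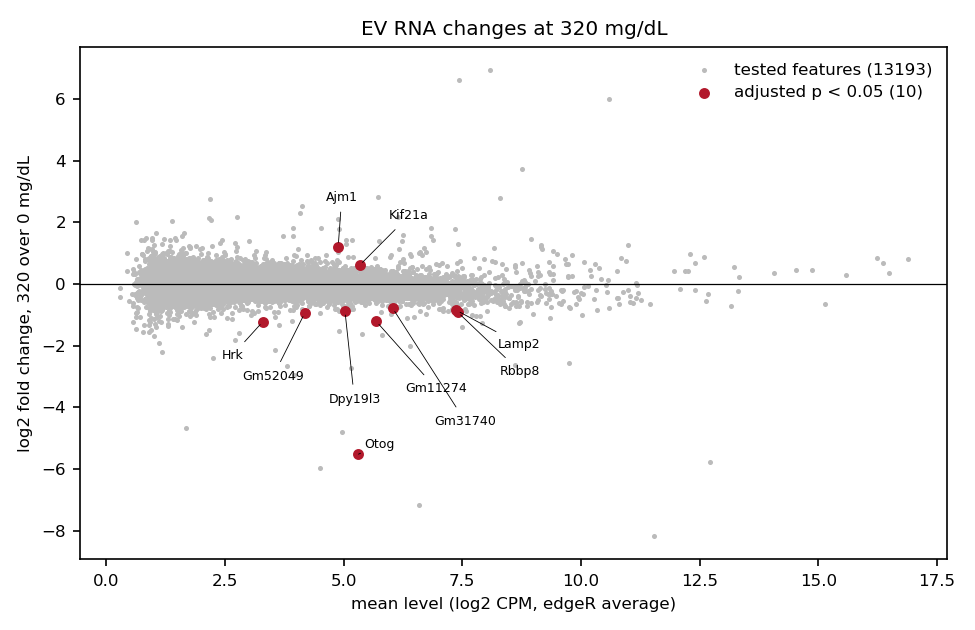
Log2 fold change of each of 13193 tested features in EVs at 320 over 0 mg/dL, against its mean level in log2 CPM as edgeR averages it. Red points are the 10 features with adjusted p under 0.05, with the 2 higher ones (Ajm1, Kif21a) above the line at 0 and the other 8 below it.

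Hrk, which codes for a BH3-only activator of apoptosis best known in neurons, had the smallest p. Its control libraries were at 14.2, 9.77, 10.8, 11.6, 10.9 and 19.7 CPM and its 320 mg/dL libraries at 6.03, 4.09, 2.64, 8.21, 3.32 and 7.49 CPM, in the order of cultures given above. The groups did not overlap, and Hrk fell by 1.21 on the log2 scale (SE 0.18, adjusted p = 0.0426). The gene lies on chromosome 5 from 118302713 to 118327543 (GRCm39, plus strand). In the cells it was low, at 0.936 CPM in control and 0.946 CPM at 320 mg/dL.

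Lamp2 codes for a glycoprotein of the lysosomal membrane that is also a common EV protein and takes part in autophagy. Its EV levels were 214.3, 292.4, 160.6, 289.4, 105 and 229.2 CPM in control and 124.2, 191, 72.5, 180.2, 51.8 and 120.4 CPM at 320 mg/dL. Each culture was lower with ethanol, while the highest ethanol libraries lay inside the control range (log2 fold change -0.85, SE 0.14, adjusted p = 0.0442). Lamp2 mRNA in the cells averaged 303.8 CPM in control and 298.1 CPM at 320 mg/dL.

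Rbbp8, which codes for the DNA end-resection factor CtIP, was at 134.8 to 260.5 CPM in control EVs with a median of 239.8 and at 74.2 to 179.1 CPM with a median of 107.6 at 320 mg/dL. It fell by 0.91 on the log2 scale (SE 0.15, adjusted p = 0.0429) and in all 6 cultures. Dpy19l3, which codes for a C-mannosyltransferase, was at 26.4 to 53.2 CPM in control and 9.23 to 31.1 CPM at 320 mg/dL (a log2 fold change -0.87, SE 0.15, adjusted p = 0.0476).

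There were 3 long noncoding RNAs among the 8 lower features. Gm11274 averaged 72.6 ± 13.5 CPM (SD, n = 6) in control and 32.2 ± 15.8 CPM at 320 mg/dL (a log2 fold change -1.21, SE 0.18, adjusted p = 0.0426 by edgeR). Gm31740 averaged 84.9 ± 14.2 and 50.1 ± 10.5 CPM (a log2 fold change -0.77, SE 0.13, adjusted p = 0.0456 by edgeR). Gm52049 averaged 23.8 ± 6.79 and 12.4 ± 5.69 CPM (a log2 fold change -0.93, SE 0.15, adjusted p = 0.0429 by edgeR). All of them were lower in 6 of 6 cultures, and each was lower in cells than in EVs, at 1.10, 12.7 and 0.267 CPM in control cells. Gm11274 and Gm31740 overlap genes on the opposite strand in GENCODE, and how the authors' counting used strand was not given in the sources used here. The same limit holds for the called Rbbp8, Dpy19l3 and Kif21a. It also holds for Adgrb1, Tle1, Trim66, Gm35090, Mtdh, Pappa and Uaca, which are described below and did not pass the threshold.

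Otog, which codes for the inner-ear protein otogelin, had the largest fitted change of the 10. Its control libraries were at 2.36, 0.444, 3.00, 46.9, 142 and 442.8 CPM, and its 320 mg/dL libraries at 1.34, 0.409, 7.91, 0.684, 2.07 and 0.312 CPM. The high control values lay in cultures 4M, 5F and 5M, culture 4F was higher with ethanol, and 5 of 6 were lower (log2 fold change -5.52, SE 0.97, adjusted p = 0.0456). In 3F, 3M and 4F there were 3, 2 and 5 counts in control and 6, 1 and 6 at 320 mg/dL. Those counts are too few to give a direction for these cultures. At 120 mg/dL the fitted difference from the same controls was -5.64 (both comparisons share these control libraries).

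Ajm1, which codes for an apical junction protein, and Kif21a, which codes for a kinesin that acts in neurons, were higher. Ajm1 was at 32.3, 6.66, 3.60, 15.4, 34.7 and 7.20 CPM in control and 64.8, 10.6, 22.4, 54.3, 60.1 and 15.3 CPM at 320 mg/dL. It rose in each culture while the groups overlapped widely (log2 fold change 1.22, SE 0.20, adjusted p = 0.0442). Kif21a averaged 31.6 ± 9.67 CPM in control and 49.3 ± 18.5 CPM at 320 mg/dL (a log2 fold change 0.61, SE 0.11, adjusted p = 0.0456), also higher in 6 of 6. In 4F it had 42 counts in control and 32 at 320 mg/dL, in libraries of 1.36 and 1.55 M counts. Its rise in that culture comes from the TMM factors (1.25 and 0.493). Scaled by library totals, neither passed (Ajm1 1.01, edgeR adjusted p = 0.246, and Kif21a 0.35, edgeR adjusted p = 0.718).

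**Figure D2:**
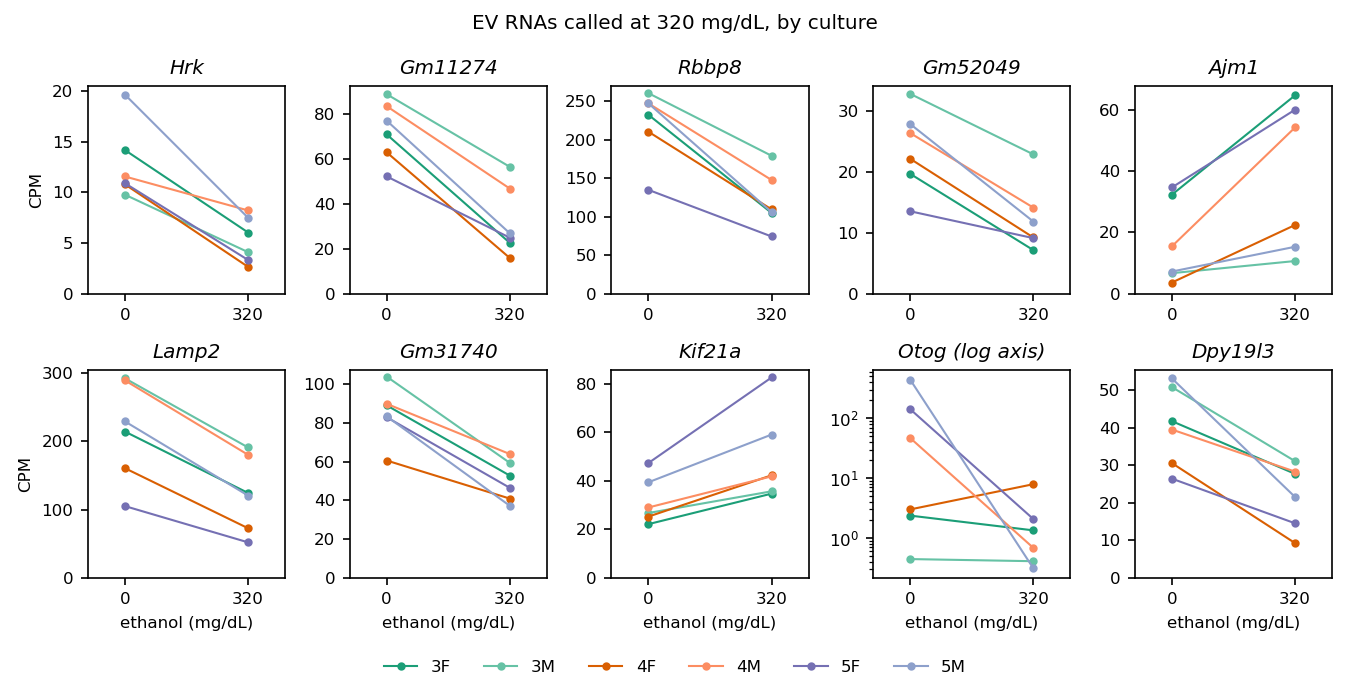
CPM of the 10 called RNAs in EVs at 0 and 320 mg/dL, with a line for each of the 6 cultures (log axis for Otog only). Lines run down in 8 panels and up in those of Ajm1 and Kif21a, except that culture 4F rises for Otog, and the 2 doses do not overlap for Hrk.

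These calls rest on few libraries. None of the 10 passed without culture 3F, without 5F or without 5M, and none passed without the culture block or when only the 12 libraries of the compared doses were fitted, a fit in which the 120 mg/dL libraries no longer add to the estimate of the spread. Without the 4F library at 320 mg/dL, a setting chosen after seeing the data, 9 passed, of which 5 were the same (Ajm1, Gm11274, Gm52049, Hrk and Otog). All 10 kept their direction under each alternative in which they were tested. That says little about the calls, since all but Otog moved one way in every culture by TMM-scaled CPM and the alternatives refit the same counts.

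Another 15 RNAs were picked for the smallest p among those that moved one way in 6 of 6 cultures, without passing the threshold. Adgrb1, an adhesion receptor of brain cells, was at 754.8, 103, 116.9, 355.9, 299.3 and 68.6 CPM in control and 1713, 242.5, 292.6, 790.2, 1309 and 229 CPM at 320 mg/dL (a log2 fold change 1.48 ± 0.28 SE, adjusted p = 0.0611). Slc22a2, an organic cation transporter, was at 2.11 to 80.4 and 4.99 to 124.9 CPM (1.43 ± 0.26, adjusted p = 0.0597). Tle1, a Groucho-family corepressor, was at 9.46 to 23.8 and 13.1 to 41.0 CPM (0.70 ± 0.13, adjusted p = 0.0611). Other RNAs with higher values were Gm35090, Entpd3, Igfbp5, Mtdh, Lmo4, Pappa and Tia1, with adjusted p from 0.105 to 0.141. Entpd3 went from 3 to 139 counts in 3F. In the other cultures it had 0 to 3 counts in control and 1 to 5 at 320 mg/dL. In 4M it had 1 count at both doses, so its rise there comes from the scaling. In 4F, Slc22a2, Tle1, Igfbp5, Mtdh, Lmo4, Pappa and Tia1 had fewer counts at 320 mg/dL than in control. For Tle1 these were 18 against 28 and for Tia1 13 against 25, in a library with more counts in total. Their rises in 4F also come from the scaling. On the lower side Trim66, a TRIM-family chromatin factor, was at 72.5 to 109.5 CPM in control and 40.2 to 70.8 CPM at 320 mg/dL, and its groups did not overlap (-0.71 ± 0.13, adjusted p = 0.0611). Rims3, a presynaptic active-zone protein, was at 108.3 to 547.1 and 46.8 to 266.2 CPM (-0.99 ± 0.19, adjusted p = 0.0673). Net1 had the same adjusted p of 0.0673, and Uaca and 2510022D24Rik had 0.124 and 0.133.

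The same RNAs at 120 mg/dL and in cells are given side by side, since the EV comparisons share their control libraries. At 120 mg/dL, 1 feature of 13193 passed (0.00758%), and it was none of the 10. Hrk was at a log2 difference of -0.59 ± 0.17 (SE) at 120 mg/dL, against -1.21 at 320 mg/dL. Lamp2 was at -0.45 ± 0.14, Rbbp8 at -0.48 ± 0.14, Ajm1 at 0.85 ± 0.21 and Kif21a at 0.26 ± 0.11. In cells at 320 mg/dL, 0 of 18725 features passed (0%) by edgeR, with 1575 at an unadjusted p under 0.05 and a smallest adjusted p of 0.0519. The cell differences were 0.02 ± 0.14 for Hrk, -0.02 ± 0.11 for Lamp2, -0.04 ± 0.06 for Rbbp8, 0.10 ± 0.08 for Kif21a, 0.32 ± 0.35 for Ajm1, 0.28 ± 0.31 for Otog, -0.11 ± 0.20 for Gm11274, -0.15 ± 0.13 for Gm31740 and -0.77 ± 0.46 for Gm52049. Dpy19l3 was at -0.37 ± 0.10 in cells, in the direction of its EV change, with an unadjusted p of 0.00305 and an edgeR adjusted p = 0.336. The test of the EV change against the cell change called 0 of 21333 features (0%) by edgeR, with 1400 at an unadjusted p under 0.05. Its smallest adjusted p values belonged to Hrk (0.0772), Otog (0.0772), Cks1brt (0.0798), Rbbp8 (0.0871) and Slc22a2 (0.0871, with an EV change above the cell change by 1.59 ± 0.31 SE). Cks1brt reached 1382 CPM in 3F and 707.5 CPM in 5M at 320 mg/dL and was at most at 3.94 CPM in each other EV library of the 2 doses.

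**Figure D3:**
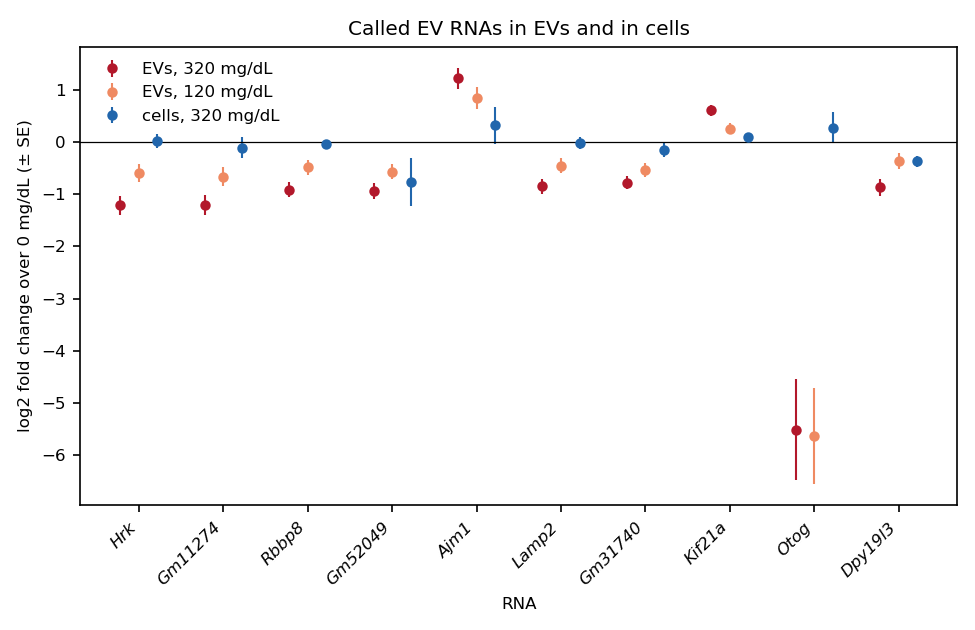
Log2 fold change over 0 mg/dL, with SE, of the 10 called RNAs in EVs at 320 mg/dL, EVs at 120 mg/dL and cells at 320 mg/dL. The 120 mg/dL values share a sign with those at 320 mg/dL, and the cell values run from -0.77 (Gm52049) to 0.32 (Ajm1), with the same sign as in EVs for each but Hrk and Otog.

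The difference between sexes in the 320 mg/dL change was fitted as an interaction. It called 0 of 14105 features (0%) by edgeR, with 574 at an unadjusted p under 0.05 and a smallest adjusted p of 0.681, for Tmem236. With 3 cultures per sex, this gives no interval that would show the sexes to act alike. Hrk differed by 0.51 ± 0.37 (male minus female change).

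RNA classes were compared as shares of the counts of each library, with an exact two-sided permutation test over the 6 pairs, whose smallest possible p is 0.03125. Protein-coding genes outside the named classes took 65.7, 77.9, 66.3, 64.2, 58.4 and 69.3% of control counts and 60.1, 76.1, 49.95, 58.0, 57.4 and 55.2% at 320 mg/dL. They were lower in 6 of 6 cultures, by 7.55 percentage points on average (SD 6.34, exact permutation p = 0.03125, adjusted p = 0.375 over 12 classes). Without culture 4F the mean difference was -5.79 points, lower in each of the other five, and without the 10 loci of largest share it was -1.77 points, lower in 6 of 6. No class passed the adjusted threshold. Other long noncoding RNAs went from 13.7% ± 3.54 to 17.8% ± 10.2, where the 4F library at 38.4% stood apart, and the mean difference was 4.17 points with that culture and 1.24 points without it. Without the 10 loci of largest share it was 0.86 points and higher in 6 of 6 (exact permutation p = 0.03125, the smallest possible, not adjusted). Mitochondrial ribosomal RNA went from 10.9% ± 3.19 to 12.6% ± 6.14 and was higher in 4 of 6 cultures, a mean difference of 1.66 points that ran from 0.72 (without 3F) to 2.56 (without 4F) with a culture left out. Small structural noncoding RNAs went from 0.806% ± 0.313 to 0.918% ± 0.451, higher in 4 of 6 (exact permutation p = 0.375), and mitochondrial mRNA from 0.100% ± 0.0771 to 0.0919% ± 0.0477, higher in 3 of 6.

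**Figure D4:**
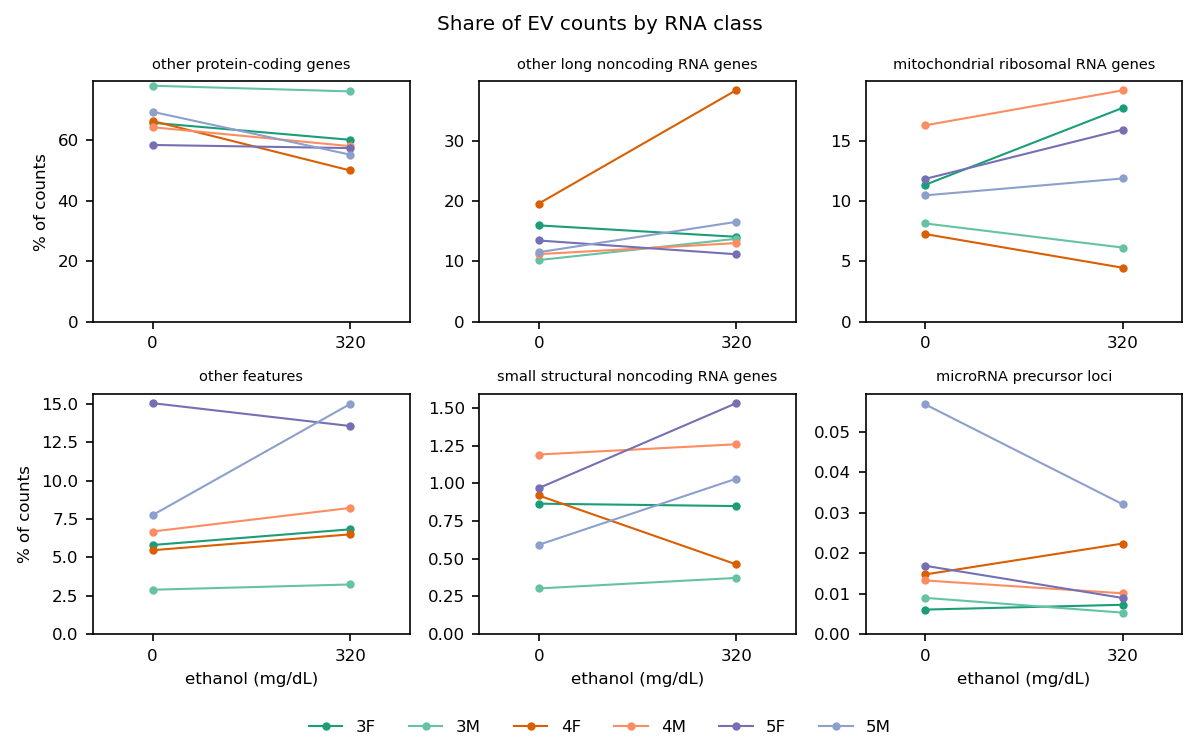
Percent of counts in 6 RNA classes in EVs at 0 and 320 mg/dL, a line per culture. The other protein-coding share runs down in each of the 6 cultures, while the rest cross, and the 4F library at 38.4% sets the top of the long noncoding panel.

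A few loci took much of each library. The 10 loci of largest share held 30.2 to 61.1% of control counts and 28.5 to 62.1% at 320 mg/dL. Cdk8, a kinase of the Mediator complex, was the largest nuclear one, at 8.78% ± 2.41 in control and 12% ± 3.26 at 320 mg/dL, higher in 6 of 6, against 1.27% of control cell counts. Gm36876, a long noncoding RNA, was at 5.00% ± 1.82 and 8.14% ± 7.35, also higher in 6 of 6, with 23.1% in the 4F library. LOC118568312 (6.51 and 8.10%), mt-Rnr2 (8.91 and 10.0%), mt-Rnr1 (1.98 and 2.53%), Gm39850 (4.23 and 4.46%) and AY036118 (2.26 and 3.07%, 10.7% in 4F) followed. The rest were uneven between libraries. Htt was at 1.36% ± 2.20 in control and 1.38% ± 1.58 at 320 mg/dL, Smg5 at 1.78% ± 1.97 and 0.489% ± 1.18 (higher in 1 of 6), and Gm51464 at 2.14% ± 3.27 and 1.22% ± 1.32 (higher in 2 of 6). Htt had 109331 and 279955 counts in the 5F and 5M controls and 98 to 409 in the other controls. At 320 mg/dL it was high in 4M, 5F and 5M, with 44 to 287 counts in the rest. Smg5 was high in the 3M, 4F and 5M controls (156 to 432 counts in the rest). At 320 mg/dL it was high in 5F alone, with 75006 counts against 53 to 372. Cdk8 overlaps other annotated genes on both strands, so its counts may be shared. Counts per locus do not show where in a locus the reads lie. Whether the reads at these 10 loci come from the transcripts they are named for was not tested.

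Gene lists are described by counts and medians, beside a median of 0.01 over all tested features and shares of 4.53% and 6.31% at an unadjusted p under 0.05. No member of any list was called. Among 11 small structural noncoding RNAs, 6 were higher at an unadjusted p under 0.05 and 0 lower, with a median log2 fold change of 0.57 by TMM and 0.25 by library totals (all features -0.24), while their summed share was higher in 4 of 6 cultures. Rn7sk, which holds the elongation factor P-TEFb inactive, was at 224.3 to 956.9 CPM in control and 235.6 to 2487 CPM at 320 mg/dL (0.80 ± 0.28 SE, adjusted p = 0.274). Rny1, the Y RNA bound by Ro60, was at 161.7 to 420.8 and 171.8 to 872.6 CPM (0.57 ± 0.22, adjusted p = 0.345). Rn7s1 and Rn7s2, RNAs of the signal recognition particle, had 0.63 ± 0.23 and 0.60 ± 0.21. In the cells at 320 mg/dL the differences were 0.56 ± 0.38 for Rn7sk, 0.59 ± 0.40 for Rny1, 0.71 ± 0.59 for Rn7s1 and 1.23 ± 0.67 for Rn7s2, each higher in 4 of 6 cultures, with edgeR adjusted p from 0.663 to 0.792.

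Of 80 mRNA splicing factors, 12 were higher and 1 lower at an unadjusted p under 0.05, with a median of 0.14. Srsf10 (0.58 ± 0.18 SE), Srsf5 (0.40 ± 0.13) and Srsf11 (0.49 ± 0.16), which code for serine/arginine-rich regulators of splice choice, had adjusted p from 0.210 to 0.246, and Prpf4 of the U4/U6 particle was lower (-0.59 ± 0.18). Of 39 nuclear pore and mRNA export genes, 1 was higher and 8 lower, with a median of 0.02. Gle1, an mRNA export factor, was at 34.2 to 70.6 CPM in control and 21.1 to 52.0 CPM at 320 mg/dL (-0.61 ± 0.15, adjusted p = 0.167). The nucleoporins Nup210 (-0.54 ± 0.12) and Nup133 (-0.44 ± 0.12) and the THO complex member Thoc3 (-0.48 ± 0.13) were lower in 6 of 6 cultures, with adjusted p from 0.141 to 0.175.

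Of 22 radial glia genes, 4 were higher and 0 lower, with a median of 0.06. They were Hes1, a Notch target (0.95 ± 0.32), Slc1a3, a glutamate transporter (0.38 ± 0.14), Sox9 (0.35 ± 0.13) and Egfr (0.28 ± 0.11), with adjusted p from 0.262 to 0.345. Of 40 EV biogenesis genes, 2 were higher and 4 lower, with a median of 0.01, and the ESCRT members pointed both ways (Vps37b -0.44 ± 0.13, Chmp6 -0.40 ± 0.15, Chmp2a 0.46 ± 0.19). Of 24 RNA-sorting protein genes, 3 were higher and 1 lower, with Ago2, the microRNA effector, at -0.58 ± 0.17. All 8 tested mitochondrial mRNAs had positive values with TMM scaling and a median of 0.29, against -0.02 by library totals (all features -0.24) and a summed share higher in 3 of 6 cultures, and 1 passed an unadjusted p of 0.05. Of 11 mitochondrial transfer RNAs, 2 did, with a median of 0.34. Ethanol metabolism genes (19 tested, 1 higher and 0 lower), NRF2 and antioxidant genes (27 tested, 1 and 1), stress response genes of the endoplasmic reticulum (28 tested, 2 and 1) and heat shock chaperones (23 tested, 1 and 1) had at most 2 members in a direction. The same held for nuclear transfer RNAs (48 tested, 2 higher and 0 lower, median 0.03), small nucleolar and Cajal body RNAs (5 tested, 2 and 0, median 0.42), replication-dependent histones (53 tested, 2 and 2, median 0.04), mitochondrial ribosomal proteins (73 tested, 1 and 2, median -0.07), neuronal genes (19 tested, 1 and 0, median 0.18), chromatin modifiers (33 tested, 2 and 2, median 0.12) and DNA replication genes (30 tested, 1 and 2, median -0.03). Cytosolic ribosomal proteins (82 tested, median 0.07) and nuclear-coded oxidative phosphorylation genes (77 tested, median 0.04) each had 3 higher and 1 lower, and mitosis genes (29 tested, median 0.01) had 4 and 1, with Plk1 at 0.68 ± 0.18 and Cdk1 at -0.45 ± 0.14. In the p53 target list (16 tested), Mdm2, the p53 ubiquitin ligase, was higher in 6 of 6 cultures (1.2 ± 0.33, adjusted p = 0.175) and Zmat3 lower in 6 of 6 (-0.70 ± 0.16, adjusted p = 0.141). In 4F Mdm2 had 396 counts in control and 272 at 320 mg/dL, so its rise there comes from the scaling.

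**Figure D5:**
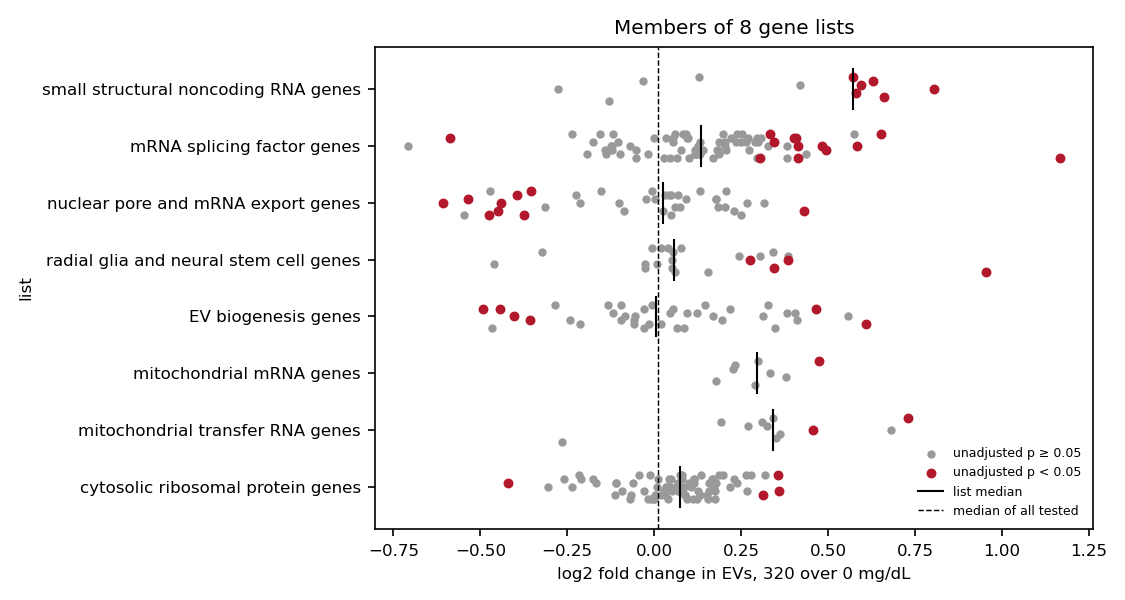
Log2 fold change in EVs at 320 over 0 mg/dL of the tested members of 8 gene lists, red where the unadjusted p is under 0.05, with the list median (bar) and the median of all features (dashed). The median of the small structural RNAs is 0.57 and that of the EV biogenesis genes 0.01.

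RNAs that differed were also described by where they were richer at 120 mg/dL, in libraries the 320 mg/dL contrast does not compare. The 595 features higher at an unadjusted p under 0.05 had a median log2 EV over cell ratio of -1.49, and 16.5% of them were richer in EVs. The 820 lower features had a median of 0.45, with 59.6% richer in EVs, and all 13098 features measured in both had -0.79 and 31.4%. This pattern was seen first and then followed at the level of libraries. The first measure defined, the log2 ratio of the summed CPM of the 1000 most cell-rich and the 1000 most EV-rich features, differed by -0.003 ± 0.610 (SD, n = 6) between 320 mg/dL and control, higher in 3 of 6 cultures (exact permutation p = 1). It changed by 0.49, 0.20, -0.89, -0.36, 0.77 and -0.24 in cultures 3F to 5M. It was 1 of 5 forms computed after the pattern was seen, and no form passed its test after adjustment.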

How the data were processed

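Per the labels and methods, the authors trimmed and deduplicated reads from rRNA-depleted stranded libraries (Trimmomatic), aligned them to mm39 with STAR and counted reads per gene with HTSeq. The strand setting and annotation release are not given in the sources used here. The deposited values are raw counts per gene (40205 features), with no normalization.

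Counts were tested in R 4.3.3 with edgeR 4.0.16 on 18 EV libraries (filterByExpr, minimum count 10 and total 15, TMM, quasi-likelihood F test, Benjamini-Hochberg adjusted p under 0.05, culture as block). SE is the log2 fold change over the root of F. CPM used in plots and text is TMM-scaled, and edgeR fold changes carry its prior count. DESeq2 1.42.0 was an alternative. Culture numbers paired the libraries: each of the 6 pairs correlated above 0.1 (0.171 to 0.636), best with its own culture. Class shares used exact permutation. Replicate libraries differed by more than sampling noise. With cultures blocked or paired, differences in level between cultures are removed. The p-values then measure how far the dose differences vary from culture to culture. The F and M cultures of a set share a pregnancy. Symbols gave 31778 GRCm39 positions (GENCODE) and 38738 RefSeq biotypes.

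The members and gene lists were chosen with earlier results of these data known, and 3 list patterns (mitochondrial, miRNA, small structural) were corrected after their first counts were seen. Named genes were called RNAs, filled up to 12 per direction by smallest p among those moving one way in 6 cultures, up to 4 per list, the 10 largest loci and up to 4 per interaction. Not every gene that this rule names is printed. The script was tested on simulated data.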

Additional observations from a re-analysis of the deposited data

Results flagged for a closer look

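Of 74 groups of 6 libraries tested for a single outlying library (Dixon's criterion at 95%), 6 passed. The criterion flags about 1 in 20 groups of independent normal values. These were unlogged levels of picked RNAs and shares from the same libraries, so the count cannot be read against that rate. Otog had a highest control value of 442.8 CPM in 5M, against 142 in the next library, and a highest 320 mg/dL value of 7.91 CPM in 4F, against 2.07. Slc22a2 had 80.4 CPM in the 3F control, against 14.5, and Entpd3 had 31.1 CPM in 3F at 320 mg/dL, against 5.27. The share of microRNA precursor loci was 0.0567% in the 5M control, against 0.0169%. The share of other long noncoding RNA genes was 38.4% in 4F at 320 mg/dL, against 16.5%. The parts of depth and of these libraries in the results were not tested beyond leaving the libraries out.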

How the results depend on the processing

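Against 10 EV RNAs called at 320 mg/dL, no filter on low counts called 207 (9 shared) and DESeq2 267 (9 shared), 52 of these higher. No replicate block and the fit of only the compared doses each called 0, with 515 and 1491 at an unadjusted p under 0.05. Leaving out a culture or a pregnancy set gave 0 to 62, with 0 without 3F, 5F, 5M, set 3 or set 5, 2 without 4M, 21 without 4F and 62 without set 4. Median-of-ratios factors kept the same 10, library totals called 8, all lower, and shared 2 (median of all features -0.24), and a mean of at least 20 counts called 12 and shared 9. The pairing by culture held and its block was the main fit.

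At 120 mg/dL, no filter called 157 and leaving out a culture 0 to 2. In cells leaving out a culture called 0 to 1. The sex difference had 165 without the filter and 0 to 1 by culture left out. The EV against cell change had 3 with median-of-ratios factors, 7 without the filter and 0 to 2 by culture left out. 

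Without the 10 largest loci, 2 classes moved one way in 6 of 6, and 1 to 2 with a culture left out. Shares near no change turned sign: mitochondrial mRNA (0.0238 points without the largest loci, a log2 ratio of 0.0216, -0.0231 to 0.00752 by culture left out), nuclear transfer RNA (0.0112 points, -0.0193 to 5.72e-06), nuclear long noncoding RNA (a log2 ratio of -0.083, -0.0117 to 0.0232) and mitochondrial transfer RNA (-0.00032 to 0.00107).

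The cell-rich against EV-rich balance was followed in 5 forms, all defined after the pattern was seen. The first gave -0.003 (-0.158 to 0.174 by culture left out), 500 features gave 0.0265, the median change of the most cell-rich minus the most EV-rich of 10 equal parts 0.25 (exact permutation p = 0.0938, 5 of 6) and of 5 equal parts 0.195 (exact permutation p = 0.188). Of the 10 parts taken singly, 2 reached the smallest possible p, and the lowest adjusted p was 0.156. Few counts limit the 4F library at 320 mg/dL most, where 3 counts are 3.95 CPM. The cause of these differences was not tested.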
